A study of Mus musculus with 18 samples.

Results

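The T cell and immune checkpoint genes followed here, by their exact symbols, through RNA sequencing of mouse mammary tumors were Cd3e, Cd8a, Cd4, Foxp3, Gzmb, Pdcd1, Ctla4, Lag3, Tigit and Cd274. They are 10 of the 55450 genes in the table of expected counts, each with a single row, and all 10 passed the filter on low counts. The 18 libraries came from 18 female mice labelled C57Bl/6, 1 library per mouse, and the floxed alleles had been bred into this background from mice of mixed stock. There were 5 B1/P/Rbf tumors (Brca1 fl/fl, Trp53 fl/fl, TgK18GT121 Tg/+), 5 B1/P tumors (Brca1 fl/fl, Trp53 fl/fl), 5 P/Rbf tumors (Trp53 fl/fl, TgK18GT121 Tg/+) and 3 wild type normal mammary glands. All 3 tumor groups thus share the Trp53 deletion, and the tumors arose after a Cre-expressing adenovirus was injected through the nipple of young adult females, while no virus is named for the glands. Rbf stands for the Rb family (pRb, p107 and p130), whose proteins are bound and inactivated in these mice by T121, a fragment of a viral oncoprotein that is made from the keratin 18 promoter once Cre has acted. The Cre was driven by the CMV promoter, which is active in many cell types. In bulk tissue, fewer T cells and less RNA per T cell cannot be told apart.

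Cd3e encodes a chain of the CD3 complex, which carries the signal of the T cell receptor, so its RNA marks T cells of every kind. CD8 and CD4 are the coreceptors of cytotoxic and helper T cells, Foxp3 is the transcription factor that defines regulatory T cells, and granzyme B (Gzmb) is a protease that cytotoxic T cells and NK cells deliver into their targets. PD-1 (Pdcd1), CTLA-4, LAG-3 and TIGIT are inhibitory receptors, called immune checkpoints, that appear on T cells after activation and stay high on exhausted ones. Cd274 encodes PD-L1, the ligand of PD-1, which tumor cells and myeloid cells make in response to interferon-γ. Antibodies against PD-1, PD-L1, CTLA-4 and LAG-3 are used to treat cancer.

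The labels were checked on the targeted genes. Brca1 lay between 44.9 and 116 CPM (counts relative to library size, after TMM scaling) in P/Rbf tumors, between 8.13 and 27.9 CPM in B1/P tumors, between 21.1 and 45.0 CPM in B1/P/Rbf tumors and between 4.61 and 5.99 CPM in the glands. Every P/Rbf tumor, which keeps the gene, lay above every B1/P tumor, while the lowest P/Rbf tumor was level with the highest B1/P/Rbf tumor, tumor 3. In that tumor the study itself saw only a partial loss of Brca1 RNA. By RT-qPCR relative to a P/Rbf tumor, the study reports loss of Brca1 RNA in the other sequenced B1/P and B1/P/Rbf tumors. It also reports recombined floxed alleles, by PCR, in all mammary tumors. Without B1/P/Rbf tumor 3, 6 of the 10 genes were called lower than in glands in the B1/P/Rbf group, as with it, and the 1 call against B1/P tumors, that of Ctla4, was lost (adjusted p = 0.0912). Against the glands, which are wild type, Brca1 was higher in B1/P and B1/P/Rbf tumors as well (log2 differences 1.49 and 2.45, adjusted p = 0.0147 and 0.000536 in edgeR, the first 0.0591 without gland 2). Measured against glands, its level thus does not show the deletion. Counts over the whole gene do not single out the deleted exons, and the label of a B1/P or B1/P/Rbf tumor is used below as given. Trp53 lay between 6.75 and 24.3 CPM in the 15 tumors and between 54.4 and 71.8 CPM in the glands. Total expected counts ranged from 27661173 to 37794889 per library. Counts are given below where they were small.

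Promoter windows of 4 of these genes are shown, since Cd3e, Cd8a and Tigit had the most closely parallel levels across tumors and Gzmb differed most from them between tumors and glands. They run from 250 bases before to 50 bases after the RefSeq start site on GRCm38.p6 and are written 5′ to 3′ along the gene, and capitals mark matches to 4 motifs.
Cd3e, chr9:45009562-45009861, minus strand: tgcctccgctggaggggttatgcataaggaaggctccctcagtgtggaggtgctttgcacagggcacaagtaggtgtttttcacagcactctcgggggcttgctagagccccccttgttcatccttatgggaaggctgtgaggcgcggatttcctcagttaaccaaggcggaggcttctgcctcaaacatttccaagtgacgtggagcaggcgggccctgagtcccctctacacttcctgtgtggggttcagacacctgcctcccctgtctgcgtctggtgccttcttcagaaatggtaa
Cd8a, chr6:71373177-71373476, plus strand: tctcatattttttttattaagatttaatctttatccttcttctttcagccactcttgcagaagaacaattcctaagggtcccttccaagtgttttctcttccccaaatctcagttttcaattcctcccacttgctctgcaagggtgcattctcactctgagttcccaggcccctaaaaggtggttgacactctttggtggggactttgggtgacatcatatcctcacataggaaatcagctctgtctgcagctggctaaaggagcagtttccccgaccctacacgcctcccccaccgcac
Tigit, chr16:43664135-43664434, minus strand: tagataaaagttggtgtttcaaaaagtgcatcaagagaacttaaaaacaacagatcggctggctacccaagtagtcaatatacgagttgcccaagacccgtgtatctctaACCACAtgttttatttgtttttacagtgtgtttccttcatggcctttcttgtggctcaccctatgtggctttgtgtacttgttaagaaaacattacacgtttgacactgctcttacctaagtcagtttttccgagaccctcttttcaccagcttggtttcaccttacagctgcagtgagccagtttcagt
Gzmb, chr14:56262285-56262584, minus strand: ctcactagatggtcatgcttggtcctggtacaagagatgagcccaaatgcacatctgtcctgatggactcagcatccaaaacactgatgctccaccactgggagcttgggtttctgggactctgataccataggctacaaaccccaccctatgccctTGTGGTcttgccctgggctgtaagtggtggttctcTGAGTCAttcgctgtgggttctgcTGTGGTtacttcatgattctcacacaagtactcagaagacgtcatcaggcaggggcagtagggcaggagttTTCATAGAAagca
The motifs were GAAA followed by any 2 bases and a further GAAA (interferon regulatory factor type), TTCNNNGAA (STAT type), TGANTCA (AP-1 type) and TGTGGT (RUNX type), searched on both strands, and none of the matches overlapped another. Of 32851 RefSeq windows of the same length, 3.44% held the first, 8.30% the second, 7.81% the third and 16.8% the fourth. The Gzmb window held TGTGGT at −93 and −34 relative to the start site, TGAGTCA at −58 and TTCATAGAA at 37, and the Tigit window held ACCACA, the reverse complement of TGTGGT, at −140. The Cd3e and Cd8a windows held no match to these letters. Windows were found for 8 of the 10 genes, with 2 windows for Foxp3, and not for Cd4 and Lag3.

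Genes of T cell identity were far lower in tumors than in normal glands. Cd3e (chr9:44998740-45009627, minus strand) had 31.3, 44.1 and 28.9 CPM in the 3 glands. In B1/P tumors 1 to 5 it had 0.159, 2.49, 3.17, 0.946 and 0.599 CPM, from 5, 84, 126, 32 and 19 counts. P/Rbf tumors held 0.748, 1.77, 0.177, 2.16 and 0.306 CPM, and B1/P/Rbf tumors 1.33, 1.46, 0.110, 0.203 and 3.57 CPM. These came from 26, 56, 7, 82 and 9 counts in P/Rbf and from 47, 54, 4, 8 and 110 counts in B1/P/Rbf tumors. Every tumor lay below every gland, and within each tumor group the highest and lowest tumors were more than 10-fold apart. Relative to normal gland Cd3e was 23.5-fold lower in B1/P tumors (log2 difference −4.55, standard error 1.03, adjusted p = 0.00275 in the edgeR fit), 33.6-fold lower in P/Rbf tumors (−5.07, standard error 1.05, adjusted p = 0.00118) and 26.1-fold lower in B1/P/Rbf tumors (−4.70, standard error 1.04, adjusted p = 0.00195).

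The coreceptor genes went the same way. Cd8a (chr6:71373427-71379173, plus strand) had 66.2 ± 15.5 CPM in glands (SD, n = 3), and 3.10 ± 2.70, 2.87 ± 2.68 and 3.60 ± 3.09 CPM in B1/P, P/Rbf and B1/P/Rbf tumors (SD, n = 5 each). Its fall was 21.3-fold, 23.0-fold and 18.4-fold in this order, with no overlap between tumors and glands (largest adjusted p = 0.00356). Cd4 (chr6:124864692-124888221, minus strand) fell from 45.2 ± 12.8 CPM to 6.44 ± 6.14, 5.45 ± 5.52 and 3.58 ± 3.77 CPM, that is 7.02-fold, 8.29-fold and 12.6-fold, again without overlap. The adjusted p of Cd4 was 0.0287 in B1/P, 0.0177 in P/Rbf and 0.00686 in B1/P/Rbf tumors. The call in B1/P tumors was lost on leaving out any 1 gland or any 1 B1/P tumor other than tumor 3 (largest adjusted p = 0.0870), and that in P/Rbf tumors on leaving out gland 2 (adjusted p = 0.0601). Macrophages of some tissues also transcribe Cd4, and summed macrophage marker genes lay between 203 and 1510 CPM in tumors, against 231 to 351 CPM in glands. The part of macrophages in the Cd4 level was not tested.

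Foxp3 (chrX:7573644-7595245, plus strand) was close to the limit of detection in tumors. The glands held 149, 255 and 113 counts, or 5.82, 8.34 and 3.83 CPM. The B1/P tumors held 0, 13, 40, 2 and 2 counts, the P/Rbf tumors 11, 1, 7, 6 and 3, and the B1/P/Rbf tumors 21, 10, 5, 3 and 4. The tumor without a count could hold up to 0.0954 CPM, the level that 3 counts give. Foxp3 was 19.4-fold, 37.1-fold and 24.5-fold lower than in glands in B1/P, P/Rbf and B1/P/Rbf tumors (largest adjusted p = 0.00379). Among other regulatory T cell genes, 7 in number and all tested, 2, 3 and 2 were lower than in glands in these groups, where 16.9%, 20.3% and 20.0% of all genes tested were called lower, and none was higher. Il2ra, a chain of the interleukin-2 receptor, fell from 9.99 CPM in glands to 1.81 CPM in B1/P and 1.82 CPM in B1/P/Rbf tumors (means, adjusted p = 0.0419 and 0.0393). Both calls of Il2ra were lost without TMM, without a filter and on leaving out any 1 gland or most single tumors (largest adjusted p = 0.125 and 0.123).

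**Figure D1:**
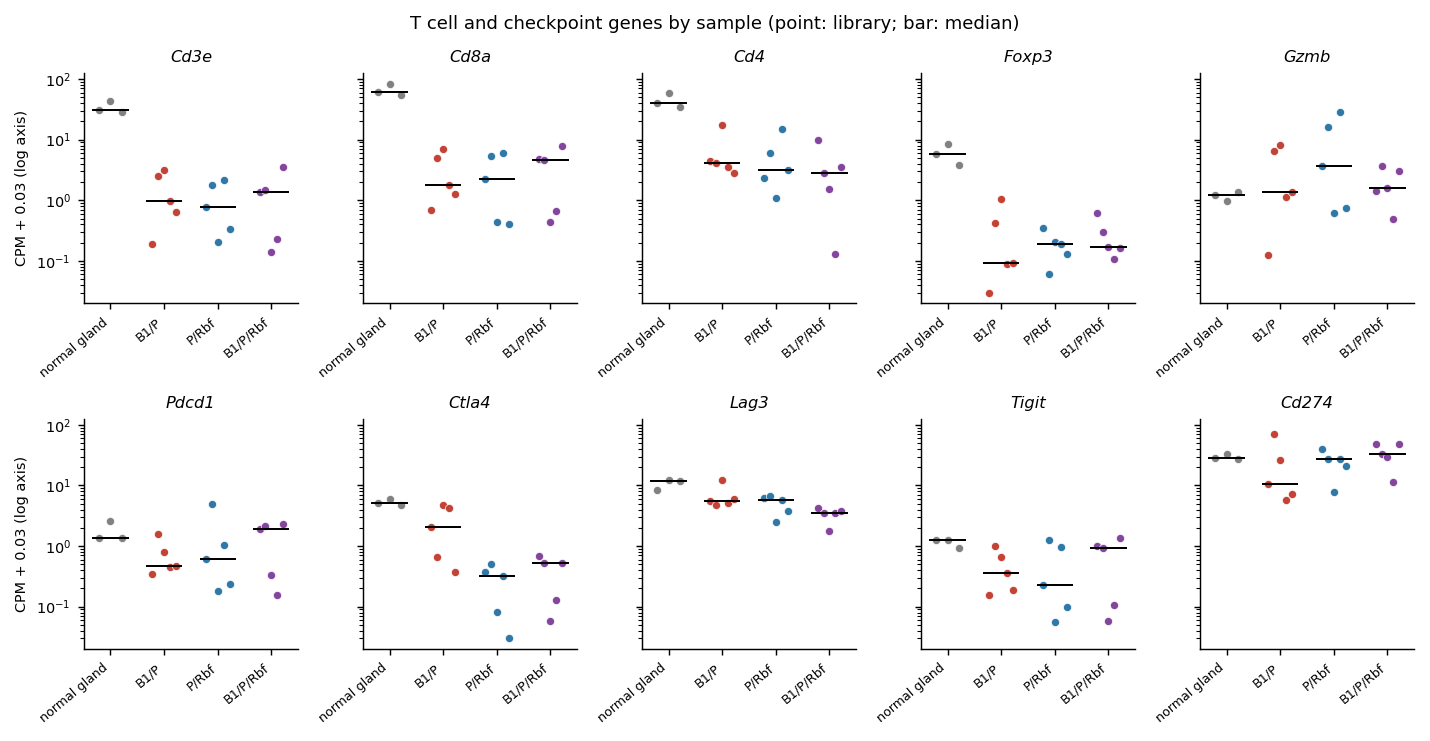
Level of each of the 10 genes in every library, as CPM with 0.03 added on a log axis, by group (points are libraries, bars are group medians, n = 3 glands and 5 tumors per group). For Cd3e, Cd8a, Cd4 and Foxp3 every tumor lies below all 3 glands, while for Gzmb, Pdcd1, Tigit and Cd274 tumors and glands overlap.

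Of the 10 genes, 4 were called lower than in normal gland in B1/P tumors (Cd3e, Cd8a, Cd4, Foxp3), where 16.9% of all 19186 genes tested were called lower. In P/Rbf and B1/P/Rbf tumors 6 of 10 were, the same 4 with Ctla4 and Lag3, where 20.3% and 20.0% of all genes were called lower. None was called higher in any of these comparisons, where 16.8%, 17.4% and 17.0% of all genes were. The genes without overlap were the same 4, 6 and 6, against 22.7%, 26.5% and 27.4% of all genes with every tumor below every gland. The median log2 difference of the 10 genes was −1.32, −2.11 and −2.67, beside 0.12, 0.05 and 0.05 over all genes tested. Comparisons that use the same glands are not independent of each other.

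Of the 4 checkpoint receptors, Ctla4 and Lag3 were called lower than in glands in the P/Rbf and B1/P/Rbf groups, and Pdcd1 and Tigit in none. Ctla4 (chr1:60887000-60915832, plus strand) had 5.04, 5.99 and 4.67 CPM in glands. It had 0.345, 0.473, 0.0506, 0.290 and 0.00 CPM in P/Rbf tumors, where the tumor without a count could hold up to 0.102 CPM, and 0.652, 0.486, 0.0276, 0.101 and 0.487 CPM in the B1/P/Rbf model. B1/P tumors had 2.07, 0.622, 4.78, 4.20 and 0.347 CPM. All P/Rbf and B1/P/Rbf tumors thus lay far below the glands, while B1/P tumor 3 reached their range. Ctla4 was 22.3-fold lower than in glands in P/Rbf tumors (adjusted p = 0.00293) and 14.8-fold lower in B1/P/Rbf tumors (adjusted p = 0.00671), and its log2 difference in B1/P tumors was −1.12 (standard error 0.97, adjusted p = 0.391).

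Lag3 (chr6:124904361-124911705, minus strand), whose product binds MHC class II, had 8.33, 12.5 and 11.6 CPM in glands, and 5.60, 4.68, 12.5, 5.17 and 5.86 CPM in B1/P tumors. P/Rbf tumors had 6.15, 6.59, 2.46, 5.74 and 3.74 CPM, and B1/P/Rbf tumors 4.20, 3.51, 1.76, 3.45 and 3.83 CPM. Every P/Rbf and B1/P/Rbf tumor lay below every gland, and B1/P tumor 3 lay within their range. The fall was 3.23-fold in B1/P/Rbf tumors (adjusted p = 0.00373) and 2.19-fold in P/Rbf tumors (adjusted p = 0.0367), and the log2 difference in B1/P tumors was −0.68 (standard error 0.41, adjusted p = 0.212). The call in P/Rbf tumors was lost in 3 of 6 other fits and on leaving out any 1 gland or P/Rbf tumor 1, 3 or 5 (adjusted p up to 0.211 in the other fits, by limma-voom, and up to 0.149 without a library, gland 2).

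Pdcd1, Tigit and Gzmb were not called between any tumor group and the glands. Pdcd1 (chr1:94038305-94052553, minus strand) had 1.33, 2.59 and 1.32 CPM in glands, from 34, 79 and 39 counts, and from 0.127 to 4.95 CPM over the 15 tumors with a median of 0.575. Tigit (chr16:43648867-43664146, minus strand) had 1.21, 1.24 and 0.914 CPM in glands and from 0.0253 to 1.33 CPM in tumors with a median of 0.325, from 1 to 41 counts. In both genes the tumor values spread over more than 10-fold and reached above the highest gland. Gzmb (chr14:56258838-56262260, minus strand) had 1.21, 0.949 and 1.32 CPM in glands. It had 0.0954, 6.55, 8.22, 1.12 and 1.32 CPM in B1/P tumors, 3.62, 16.1, 0.582, 28.6 and 0.715 CPM in P/Rbf tumors and 1.39, 3.67, 1.57, 0.457 and 2.99 CPM in B1/P/Rbf tumors. The highest values were those of P/Rbf tumors 2 and 4, and the lowest that of B1/P tumor 1, which held 3 counts. In P/Rbf tumors the log2 difference of Gzmb relative to glands was 3.09 (standard error 1.35, adjusted p = 0.0804). Across 6 other fits the adjusted p of that difference ranged from 0.0142 in DESeq2, which called it, to 0.144.

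Cd274 (chr19:29367455-29388095, plus strand), the ligand gene, did not separate tumors from glands. It had 28.6, 32.8 and 27.4 CPM in glands and 10.6, 71.4, 26.1, 5.62 and 7.09 CPM in B1/P tumors. P/Rbf tumors had 39.9, 27.4, 7.67, 27.5 and 21.3 CPM, and B1/P/Rbf tumors 47.4, 33.2, 29.2, 11.4 and 47.9 CPM. All 3 tumor groups overlapped the glands, and the log2 differences were −0.29, −0.26 and 0.19 in B1/P, P/Rbf and B1/P/Rbf tumors (standard errors 0.69, 0.69 and 0.70, smallest adjusted p = 0.772). Divided by exon length, the order of mean levels in glands was Cd8a at 18.2 ± 4.27 CPM per kb, Cd4 at 11.2 ± 3.19, Cd3e at 8.52 ± 2.00, Cd274 at 8.17 ± 0.789 and Lag3 at 5.13 ± 1.05, with Gzmb lowest at 0.808 ± 0.133 CPM per kb (SD, n = 3). Of these neighbors, Cd4 and Cd3e differed by less than the SD of Cd4, and Cd3e and Cd274 by less than the SD of either. In tumors the order began with Cd274, at 6.67 ± 7.63 CPM per kb in B1/P and 9.34 ± 4.15 CPM per kb in B1/P/Rbf tumors, and in P/Rbf tumors with Gzmb at 6.90 ± 8.51 and Cd274 at 6.83 ± 3.23 CPM per kb (SD, n = 5). Lag3 followed these at 3.21 ± 1.53, 1.59 ± 0.443 and 2.34 ± 0.836 CPM per kb in B1/P, B1/P/Rbf and P/Rbf tumors, and Foxp3 came last in all 3 tumor groups, at 0.0661, 0.0528 and 0.0343 CPM per kb. In B1/P tumors the means of Cd274 and Lag3 differed by less than the SD of Cd274. That gene had 71.4 CPM in B1/P tumor 2 and at most 26.1 CPM in the other B1/P tumors.

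The normal glands held more RNA of several other cell types than most or all tumors did, and these values stand beside every comparison with glands. The 10 B cell markers summed to between 451 and 594 CPM in glands and between 0.817 and 8.12 CPM in tumors, and all 10 were called lower in each tumor group, against 16.9%, 20.3% and 20.0% of all genes. Ms4a1 (CD20) had 48.6 to 61.9 CPM in glands and at most 0.782 CPM in tumors, and stood at 0 counts in B1/P tumor 1. Of the lymph node chemokines, Ccl21a stood at 214, 281 and 192 CPM and Ccl19 at 39.1, 64.5 and 38.5 CPM in glands, against at most 7.91 and 0.652 CPM in tumors. A list of 7 lymph node genes, which holds the lymphocyte genes Ltb and Tnfrsf13c beside those of stroma and high endothelial venules, summed to 338 to 484 CPM in glands and 0.861 to 168 CPM in tumors. Of the highest sum, in B1/P/Rbf tumor 5, Ltb made up 120.1 CPM and Madcam1 46.8 CPM, and both lay above every gland there. Summed genes of naive and central memory T cells were 452 to 632 CPM in glands and 23.0 to 194 CPM in tumors. Tcf7 alone made up 166 CPM of the highest tumor sum, in B1/P tumor 4. Skeletal muscle and fat markers were present in glands too, at summed levels of 21948 to 42864 and 9183 to 13246 CPM, against at most 579 and 172 CPM in tumors. The part that lymph node tissue or other cells in the gland libraries have in the differences of the 10 genes was not tested.

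**Figure D2:**
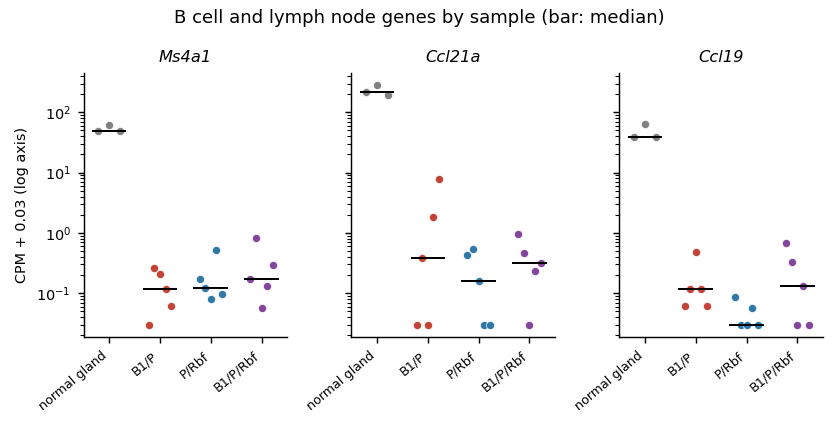
Levels of the B cell gene Ms4a1 and 2 lymph node chemokine genes (Ccl21a, Ccl19) in every library, as CPM with 0.03 added on a log axis, by group (points are libraries, bars are medians). All 3 glands lie above all 15 tumors in each panel.

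To set the genes against T cell content, counts were divided by those of Cd3e in the same library, with 0.5 added to both, for the 8 members other than Cd3e and Cd274. Cd3e held only 5 counts in B1/P tumor 1, 7 and 9 in P/Rbf tumors 3 and 5, and 4 and 8 in B1/P/Rbf tumors 3 and 4. The ratios of these tumors are therefore imprecise, among them the Gzmb ratio of 12.8 in B1/P/Rbf tumor 3. Cd8a per Cd3e had a narrow range of 1.89 to 1.92 in glands and of 1.21 to 3.91 in tumors, with medians of 2.03 in B1/P, 2.76 in P/Rbf and 3.09 in B1/P/Rbf tumors. Foxp3 per Cd3e ranged from 0.133 to 0.190 in glands and overlapped them in each tumor group, with medians of 0.128, 0.368 and 0.412. Gzmb per Cd3e was 0.0219 to 0.0462 in glands, 0.636 to 2.62 in B1/P, 2.26 to 13.2 in P/Rbf and 0.837 to 12.8 in B1/P/Rbf tumors. Pdcd1 per Cd3e was at most 0.0590 in glands and at least 0.249 in tumors. Lag3 per Cd3e was at most 0.401 in glands and at least 1.07 in tumors, and Tigit per Cd3e at most 0.0394 and at least 0.200.

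For Gzmb, Pdcd1, Lag3 and Tigit, 4 of the 8 ratios, all 15 tumors lay above all 3 glands. The share of all genes whose ratio to Cd3e does so is not given here. On the log2 scale Gzmb per Cd3e was above glands by 5.57 in B1/P, 7.27 in P/Rbf and 6.06 in B1/P/Rbf tumors. Pdcd1 per Cd3e was above them by 3.68, 4.21 and 4.57 in this order, Lag3 per Cd3e by 4.40, 4.39 and 3.85, and Tigit per Cd3e by 3.47, 3.37 and 3.83. A gene with the same CPM in tumors and glands gains in this ratio by the fall of Cd3e alone, which was −5.15, −5.59 and −5.57 as a mean of log2 values over libraries, the scale of these ratios. On that scale the level of Gzmb itself differed from glands by 0.42, 1.68 and 0.48, and those of Pdcd1, Lag3 and Tigit by between −2.22 and −0.76, so the gains of these 3 in the ratio were smaller than the fall of Cd3e and those of Gzmb larger by the differences given. Of the other ratios, Cd4 per Cd3e lay above every gland in B1/P and P/Rbf tumors, Ctla4 per Cd3e in B1/P tumors and Cd8a per Cd3e in B1/P/Rbf tumors. For Gzmb, Pdcd1, Lag3 and Tigit each difference from glands had an exact two-sided permutation p of 0.0179, the smallest that 5 tumors against 3 glands can give, except Lag3 in B1/P/Rbf tumors at an exact p of 0.0357. Over all 48 ratios tested (8 genes, 6 comparisons) the smallest Benjamini-Hochberg adjusted p of these exact tests was 0.0659, so none passed 0.05 after correction. The Cd3e counts of glands and of tumors both enter these differences, and the part that lymph node tissue in the glands has in them was not tested.

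**Figure D3:**
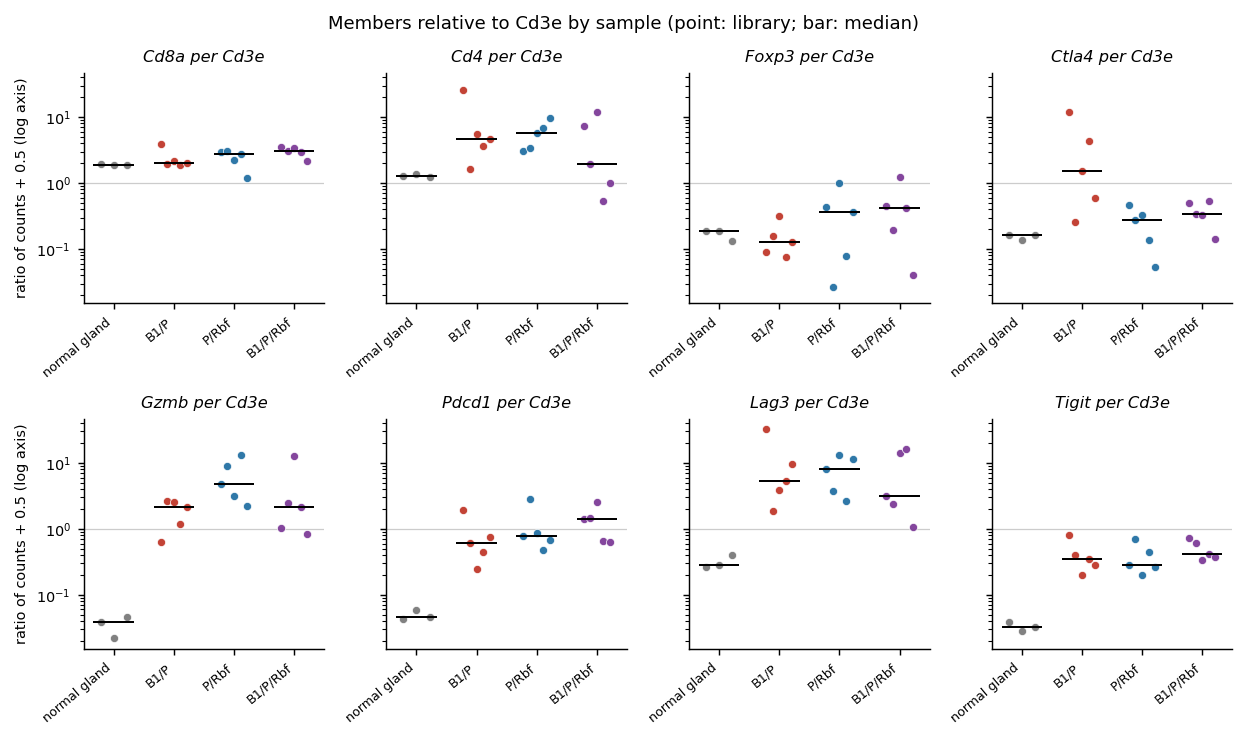
Counts of 8 genes divided by Cd3e counts in the same library, 0.5 added to both, on a log axis, by group (points are libraries, bars are medians). In the lower row (Gzmb, Pdcd1, Lag3, Tigit) all 15 tumors lie above all 3 glands, while Cd8a, Cd4, Foxp3 and Ctla4 in the upper row overlap in at least 1 tumor group.

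Between the tumor groups few of the 10 genes differed. With B1/P tumors as the reference, 1 of 10 was lower and none higher in the B1/P/Rbf model, against 9.29% of all genes called lower and 7.36% higher, and 1 of 10 lower and none higher in the P/Rbf model, against 10.8% and 8.43%. Between both T121 models, B1/P/Rbf and P/Rbf, 0 of 10 were called by edgeR and 0 by DESeq2. Of all genes, edgeR called 0.0625% lower and 0.219% higher there, and DESeq2 called 1023 of 19186 in either direction. At an unadjusted p under 0.05 in edgeR the counts of the 10 genes in these comparisons were 2, 1 and 1. Both calls were of Ctla4. Against B1/P tumors its level was 6.81-fold lower in the B1/P/Rbf group (log2 difference −2.77, standard error 0.92, adjusted p = 0.0491) and 10.2-fold lower in the P/Rbf group (−3.35, standard error 0.95, adjusted p = 0.0216). The groups overlapped, since B1/P tumor 5 had 0.347 CPM, and 2 of 5 B1/P/Rbf and 4 of 5 P/Rbf tumors lay below every B1/P tumor. The first call stood just under the threshold and was lost in 4 of 6 other fits and on leaving out any 1 of 8 of these tumors, that is all but B1/P tumors 2 and 5 (adjusted p up to 0.105, without B1/P tumor 3). The second was lost when only these 2 groups were fitted (adjusted p = 0.0674) and held on leaving out each of the 10 tumors.

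In 3 of 5 B1/P tumors Ctla4 counts exceeded those of Cd3e. B1/P tumors 1 to 5 held 65, 21, 190, 142 and 11 counts of Ctla4, with 5, 84, 126, 32 and 19 counts of Cd3e and 0, 13, 40, 2 and 2 of Foxp3. Tumor 1 thus had a Ctla4 per Cd3e ratio of 11.9, the highest of any library, and tumors 3 and 4 also held more Ctla4 than Cd3e, which no P/Rbf or B1/P/Rbf tumor did. Against B1/P tumors, Ctla4 per Cd3e was 8.21-fold lower in P/Rbf (exact permutation p = 0.0397, adjusted over 48 ratios 0.119) and 4.90-fold lower in B1/P/Rbf tumors (exact permutation p = 0.0794, adjusted 0.201).

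Lag3 was the other gene near the threshold. All 5 B1/P/Rbf tumors lay below all 5 B1/P tumors, as did 5.48% of all genes, with a log2 difference of −1.01 (standard error 0.36, adjusted p = 0.0647). DESeq2 called it (adjusted p = 0.0200) and so did edgeR without B1/P tumor 2 (adjusted p = 0.0498). Gzmb had a log2 difference of −2.30 between the B1/P/Rbf and P/Rbf groups, lower in the former (standard error 1.05, adjusted p = 0.293) and of 1.52 between P/Rbf and B1/P tumors, higher in the former (standard error 1.03, adjusted p = 0.308). Relative to Cd3e it was 3.25-fold higher in P/Rbf tumors against the B1/P group, with an exact permutation p of 0.0238 that did not pass correction (adjusted 0.0816). NK cells make granzyme B as well. Their 5 markers summed to 5.31 to 30.8 CPM in P/Rbf, 0.954 to 6.43 CPM in B1/P, 0.779 to 9.40 CPM in B1/P/Rbf tumors and 5.11 to 7.53 CPM in glands. In P/Rbf against B1/P tumors their log2 differences ran from −0.23 to 2.34, and 1 of the 5 was called higher, against 8.43% of all genes. That marker, Gzmc (granzyme C), had a mean of 11.3 CPM in P/Rbf tumors, where each other marker averaged at most 1.14 CPM. It had 15.2 and 23.4 CPM in P/Rbf tumors 2 and 4, where Gzmb was highest. Its call (adjusted p = 0.0492) was lost in 2 of 6 other fits and on leaving out any 1 of 8 tumors (up to 0.114). Ncr1, which defines NK cells, had 2.00 CPM in P/Rbf tumor 4, the highest value of all libraries. In every other tumor Ncr1 lay below every gland. Klrb1c, another of these markers, was also highest of all libraries in P/Rbf tumor 4, the tumor with the most Gzmb. Klre1 and Klra8 did not exceed the highest gland in that tumor. The part of NK cells in the Gzmb level was not tested. Cd3e, Cd8a, Cd4, Foxp3, Pdcd1, Tigit and Cd274 overlapped in all 3 comparisons, with log2 differences between −0.94 and 0.98 and standard errors between 0.60 and 0.96. Standard errors of this size leave differences as large as these undetectable with 5 tumors a group.

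Across the 15 tumors, after removing each group's mean log2 CPM, most of the 10 genes rose and fell with Cd3e. Pearson's r with Cd3e was 0.97 for Cd8a (Spearman's rho 0.94), 0.94 for Tigit (rho 0.89), 0.84 for Gzmb (rho 0.80) and 0.84 for Pdcd1 (rho 0.83). Permutation p values of r adjusted over 9 genes were 9.0e-05, 1.3e-04, 3.9e-04 and 6.3e-04, and those of rho 1.8e-04, 3.6e-04, 0.00139 and 0.00139. Cd4 had an r of 0.67 (rho 0.65, adjusted permutation p = 0.0177 and 0.0224), Lag3 of 0.67 (rho 0.65, 0.0177 and 0.0210), Cd274 of 0.65 (rho 0.74, 0.0183 and 0.00778) and Ctla4 of 0.60 (rho 0.54, 0.0351 and 0.0630). Foxp3 had an r of 0.50 and a rho of 0.41 that did not pass (adjusted permutation p = 0.0783 and 0.161). Without B1/P tumor 1 and B1/P/Rbf tumor 3, the 2 tumors farthest from the median Cd3e, r was 0.97 for Cd8a, 0.96 for Tigit, 0.91 for Gzmb, 0.87 for Pdcd1, 0.82 for Cd4, 0.75 for Cd274, 0.65 for Ctla4, 0.61 for Lag3 and 0.34 for Foxp3. Leaving out B1/P/Rbf tumor 3 alone, the r of Lag3 and Ctla4 no longer passed (0.58 and 0.51, adjusted permutation p = 0.0584 and 0.0994), nor did that of Cd274 without P/Rbf tumor 3 (0.59, 0.0564), and that of Ctla4 was lost without any 1 of 7 further tumors. Foxp3 passed without P/Rbf tumor 2 or B1/P/Rbf tumor 5 (0.62 and 0.61, adjusted permutation p = 0.0308 and 0.0429). Ctla4 differed between its rank and linear measures, and the B1/P tumors with high Ctla4 lie above the rest of the plot of Ctla4 against Cd3e.

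**Figure D4:**
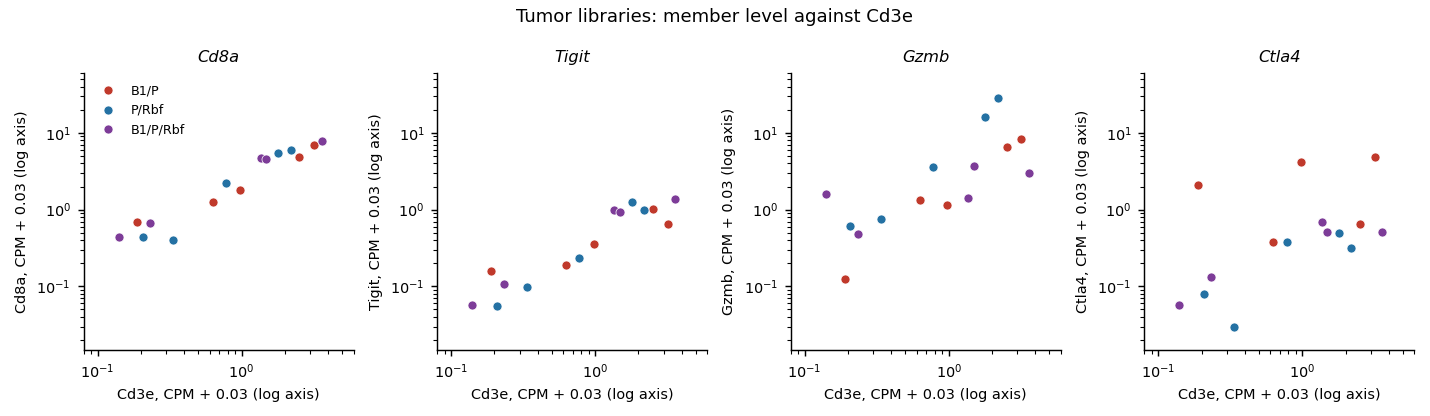
Levels of Cd8a, Tigit, Gzmb and Ctla4 against Cd3e in the 15 tumors, both as CPM with 0.03 added on log axes (points are libraries, colored by group). Cd8a and Tigit follow Cd3e closely in all groups (r = 0.97 and 0.94 after centering), while B1/P tumors 1, 3 and 4 hold more Ctla4 than the other tumors with 2.07, 4.78 and 4.20 CPM.

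Of 14916 genes averaging 1 CPM or more in tumors, the 5 nearest to Cd3e by the same measure included Nkg7, a gene of cytotoxic granules (r = 0.98), Cd8b1, the other CD8 chain (0.98), Ms4a4b (0.97) and Cd8a (0.97), each over 15 tumors and as a description. Other genes of the T cell receptor complex and its signaling had r between 0.57 (Lat) and 0.98, with a median of 0.92 over 15 genes. Cytotoxic effector genes had a median of 0.82 over 11 genes, with Gzma lowest at 0.22. Markers of some other immune cells had a high r with Cd3e too, with medians of 0.72 over 9 macrophage markers, 0.76 over 6 dendritic cell markers and 0.63 over 10 B cell markers. For 5 NK cell markers and 5 neutrophil markers the medians were lower, at 0.47 and 0.42. The r of Cd4, Lag3 and Cd274 lay below the macrophage median. The part of these cells in the correlations was not tested. The genes nearest to Cd274 were Pilrb1 (r = 0.95), 9530082P21Rik (0.94), Slfn5 (0.93), Itgal, an integrin chain of leukocytes (0.93), and Grn, progranulin (0.92). Among 13 interferon-γ response genes, the r with Cd274 was −0.33 for Ido1, and in the others it ran from 0.46 for Psmb9 to 0.86 for Gbp4.

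The wider T cell program was read from lists of related genes. Of 15 genes of the T cell receptor complex and its signaling, 14, 15 and 13 were lower than in glands in B1/P, P/Rbf and B1/P/Rbf tumors, none was higher, and the median log2 differences were −4.56, −5.34 and −4.70. Cd5, a T cell surface receptor, fell from 26.2 to 0.356 CPM in P/Rbf tumors, and Cd247, the ζ chain of the receptor complex, from 27.6 to 0.690 CPM in B1/P/Rbf tumors (means, adjusted p = 0.000126 and 8.22e-05). Of 11 cytotoxic effector genes 5, 4 and 4 were lower, against 16.9%, 20.3% and 20.0% of all genes, with medians of −2.27, −1.26 and −1.50. Klrd1, an NK and T cell receptor, was the gene of that list that fell most in each tumor group, although its call in P/Rbf tumors was lost without gland 2 (adjusted p = 0.0550). Of 7 costimulatory receptors 6 were lower in each group, and Cd27 fell from 23.5 CPM in glands to 0.466, 0.322 and 0.377 CPM. The other, Tnfrsf9 (4-1BB), was called higher than in glands in P/Rbf tumors (log2 difference 6.44, adjusted p = 0.0176), a call that was lost without P/Rbf tumor 2 (1.24, adjusted p = 0.199), without any 1 gland and in 2 of 6 other fits. Of 10 other inhibitory receptors and exhaustion genes 1, 4 and 3 were lower, counts on either side of the shares of all genes (16.9%, 20.3% and 20.0%), led by Btla, which B cells also carry, and Havcr2 (TIM-3) was called higher in B1/P tumors (7.23 against 2.53 CPM, adjusted p = 0.0389). The call of Havcr2 was lost without a filter on low counts (adjusted p = 0.0676), with only these groups fitted (0.0931) and on leaving out B1/P tumor 2 or 3 or gland 1 or 3 (adjusted p up to 0.165). Macrophages transcribe Havcr2 too, and 6 of their 9 markers were called higher in B1/P tumors than in glands, against 16.8% of all genes. Their part in the Havcr2 level was not tested.

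Between tumor groups few genes of the same lists were called. No gene of the T cell receptor list was called when B1/P/Rbf tumors were set against B1/P or P/Rbf tumors, with 0 and 1 at an unadjusted p under 0.05. Of all genes, 9.29% were called lower and 7.36% higher in the first comparison, and 0.0625% and 0.219% in the second. In P/Rbf against B1/P tumors 1 of the 15 was called lower, against 10.8% of all genes. This was the adaptor gene Lcp2, which fell from 20.2 CPM in the B1/P group to 6.92 CPM in P/Rbf (adjusted p = 0.0314). That call was lost in 2 of 6 other fits and without B1/P tumor 2 or 3 or P/Rbf tumor 1, 3 or 5 (adjusted p up to 0.0848 without a tumor). Macrophages transcribe Lcp2 too, and in the same comparison their 9 markers had log2 differences from −4.22 (Cd163) to −0.47 with a median of −0.98, and 2 were called lower, against 10.8% of all genes. Their part in the fall of Lcp2 was not tested. Of 7 regulatory T cell genes 2 were lower in P/Rbf than in B1/P tumors, Il10 and Ikzf4 (log2 differences −3.44 and −2.23), against 10.8% of all genes. The call of Il10 (adjusted p = 0.0216) was lost by limma-voom (0.114) and without B1/P tumor 3 (0.0596), and that of Ikzf4 in 2 of 6 other fits and on leaving out any 1 of 4 tumors (up to 0.125 and 0.0987). B1/P tumors 1 to 5 held 328, 36, 170, 78 and 97 counts of Ikzf4, with 0, 13, 40, 2 and 2 of Foxp3. The r of Ikzf4 with Cd3e was 0.28, and the part of cells other than T cells in its level was not tested. Of 11 cytotoxic effector genes 2 were higher than in B1/P tumors in each T121 model and none lower, against 7.36% of all genes in B1/P/Rbf and 8.43% in P/Rbf. Ccl5 in the former and Eomes in the latter were called beside Gzma, and both calls were lost on leaving out single tumors (adjusted p = 0.0462 and 0.0271, up to 0.127 and 0.137). Gzma (granzyme A) was the cytotoxic gene that rose most, from 0.908 CPM in B1/P tumors to 26.0 CPM in B1/P/Rbf tumors (log2 difference 4.83, standard error 1.13, adjusted p = 0.00843) and 11.3 CPM in P/Rbf tumors (3.63, standard error 1.07, adjusted p = 0.0261), a call lost in 2 of 6 other fits and without B1/P tumor 1 or 4 or P/Rbf tumor 1 or 5. B1/P/Rbf tumors 1 to 5 held 23.3, 26.8, 62.2, 0.989 and 16.8 CPM of Gzma, and B1/P tumors 0.191, 0.415, 2.29, 0.325 and 1.32 CPM. The highest Gzma stood in B1/P/Rbf tumor 3, which had the lowest Cd3e of all tumors, at 4 counts. Tcf7, a transcription factor of naive and memory T cells, fell from 69.7 CPM in B1/P to 8.36 CPM with all 3 lesions (B1/P/Rbf) and 9.23 CPM in P/Rbf tumors (adjusted p = 0.00257 and 0.00330), without overlap. None of the other genes on its list of 7 was called in these comparisons, and in B1/P tumors, at 35.4, 36.3, 55.2, 166 and 55.6 CPM, it overlapped the glands, which held 79.4 to 128 CPM. B1/P tumors 1 to 5 held 1113, 1226, 2195, 5612 and 1762 counts of Tcf7, with 5, 84, 126, 32 and 19 of Cd3e. The glands held 2344 to 3897 counts of Tcf7 with 800 to 1347 of Cd3e. Its r with Cd3e across the tumors was 0.21, and the part of cells other than T cells in its level was not tested.

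Some ligand genes of checkpoint receptors were called between T121 and B1/P tumors. Of 16 checkpoint and costimulatory ligand genes tested, 4 were higher and none lower in the B1/P/Rbf model with B1/P as the reference, where 7.36% of all genes were called higher, and the median log2 difference was 0.53 beside −0.06 over all genes. In the P/Rbf model 2 of 16 were higher than in B1/P tumors and none lower, against 8.43% of all genes called higher. Between the B1/P/Rbf and P/Rbf groups edgeR called 0 of 16, with 3 at an unadjusted p under 0.05. DESeq2 called 2 of 16, Cd200 and Fgl1 (adjusted p = 0.00661 and 0.0169), against 1023 of all 19186 genes in either direction. The 4 were Fgl1, Lgals9, Vtcn1 and Tnfsf4, of which the last 3 were chosen for naming after their values were seen. Tnfsf4 (OX40 ligand) was low throughout, at no more than 1.67 CPM, and its call was lost in 2 of 5 other fits and on leaving out any 1 of 6 tumors (adjusted p up to 0.118). Fgl1, a secreted ligand of LAG-3, had 62.9, 611, 132, 11.2 and 329.6 CPM in the B1/P/Rbf group, 8.31, 4.10, 14.3, 15.5 and 85.4 CPM in P/Rbf tumors, and 0.0318, 1.13, 0.327, 1.72 and 2.30 CPM in B1/P tumors. The glands held 2.66, 1.64 and 3.79 CPM, so every tumor with T121 lay above every gland and every B1/P tumor. Its log2 difference was 7.70 in B1/P/Rbf (standard error 1.25, adjusted p = 0.00103) and 4.54 in P/Rbf (standard error 1.09, adjusted p = 0.00935) relative to B1/P tumors, and 6.41 in B1/P/Rbf tumors relative to glands (standard error 1.49, adjusted p = 0.00294). In P/Rbf tumors relative to glands it was 3.24 and not called (adjusted p = 0.0522). That difference was called by DESeq2 (adjusted p = 0.00749), without TMM (0.0356) and with only these groups fitted (0.0387). Leaving out P/Rbf tumor 1 or 2 gave the call in edgeR too (adjusted p = 0.0430 and 0.0376). The call in P/Rbf against B1/P tumors was lost by limma-voom (log2 difference 4.69, adjusted p = 0.0752).

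Lgals9 (galectin-9), a ligand of TIM-3, had 249.9, 341, 429.8, 105 and 335 CPM in the B1/P/Rbf group, 371, 379, 89.8, 436 and 341 CPM in P/Rbf tumors and 34.2, 167, 125, 47.3 and 69.0 CPM in B1/P tumors. The groups overlapped through the lowest tumor of each T121 model, and the log2 differences relative to B1/P tumors were 1.72 and 1.87 (standard errors 0.46 and 0.47, adjusted p = 0.0180 and 0.0112). Vtcn1 (B7-H4), an inhibitory member of the B7 family, had a log2 difference of 3.16 between the B1/P/Rbf and B1/P groups (standard error 0.77, adjusted p = 0.0109), without overlap. Cd276 (B7-H3) did not separate the tumor groups but was higher than in glands in every tumor, at 40.2 to 138 CPM against 10.1 to 12.4 CPM, with log2 differences of 2.78, 3.11 and 3.15 in B1/P, P/Rbf and B1/P/Rbf tumors (largest adjusted p = 0.000144). The summed level of 6 epithelial markers was 1382 to 1771 CPM in glands, 1598 to 3593 in B1/P, 2453 to 4835 in B1/P/Rbf and 4644 to 8968 CPM in P/Rbf tumors. With B1/P as the reference, 2 of the 6 were called higher in B1/P/Rbf tumors (Krt18 and Cdh1) and 4 in P/Rbf tumors (those with Krt8 and Epcam), against 7.36% and 8.43% of all genes, and none was called lower, while the basal keratin genes Krt5 and Krt14 had log2 differences of −5.08 and −2.75 in B1/P/Rbf tumors (adjusted p = 0.0868 and 0.0676). The part of epithelial content in the ligand levels was not tested.

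**Figure D5:**
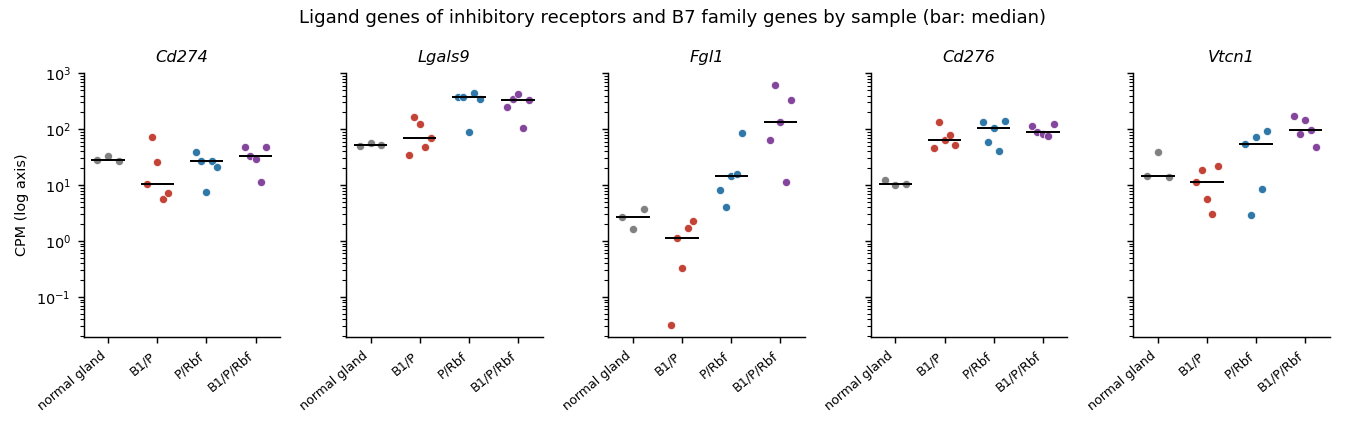
Levels of Cd274, Lgals9, Fgl1, Cd276 and Vtcn1 in every library, as CPM on a log axis, by group (points are libraries, bars are medians). Fgl1 is above all glands and B1/P tumors in every B1/P/Rbf and P/Rbf tumor, Cd276 is above all glands in every tumor, and Cd274 overlaps in all groups.

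Interferon-γ response genes, to which Cd274 belongs, were called in both directions relative to glands, in small numbers. Of 13, 1, 3 and 1 were called higher and 3, 2 and 3 lower than in glands in B1/P, P/Rbf and B1/P/Rbf tumors, against 16.8%, 17.4% and 17.0% of all genes higher and 16.9%, 20.3% and 20.0% lower. Cxcl10, a chemokine that draws T cells, was higher in all 3 (39.5, 64.6 and 41.0 against 3.17 CPM, largest adjusted p = 0.0226). Its call was lost without any 1 gland in B1/P tumors (adjusted p up to 0.0851) and without gland 1 or 3 in B1/P/Rbf tumors (up to 0.0737), and by limma-voom in B1/P and P/Rbf tumors (adjusted p = 0.0958 and 0.0578). Ido1, a tryptophan-degrading enzyme, had 77.4 to 206 CPM in glands and fell most of the list in B1/P and B1/P/Rbf tumors (log2 differences −6.34 and −4.70, adjusted p = 0.00233 and 0.00965), and Ciita, the activator of MHC class II genes, fell most in P/Rbf tumors (−2.87, adjusted p = 0.000972). With B1/P tumors as the reference, 3 were higher in the P/Rbf model and none lower, against 8.43% of all genes called higher, and Ido1 rose from 1.60 to 33.9 CPM, below every gland (adjusted p = 0.0206, and 0.0835 with only these groups fitted). Cd274 itself had a log2 difference of 0.03 in that comparison (standard error 0.60, adjusted p = 0.978).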

How the data were processed

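RNA from 15 tumors and 3 glands had been made into stranded mRNA libraries, pooled and sequenced in pairs of reads. The authors trimmed reads with Cutadapt 1.18 and deposited expected counts from RSEM 1.3.0 per gene, not normalized, in which read pairs matching several genes are divided. A human build is named as reference in the methods, but each of the 55450 gene identifiers belongs to GENCODE M21 (mouse, GRCm38). Whether counting used the strand is not given in the sources used here. Foxp3 overlaps Ppp1r3f, Ccdc22 and Gm36995 on the other strand (up to 220, 1356 and 489 counts in a library) and Flicr on its own strand (up to 20), while tumors held at most 40 counts of Foxp3.

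Expected counts were rounded and tested in edgeR 4.0.16 (R 4.3.3): TMM scaling, filterByExpr with a minimum count of 10 (19186 genes), 1 quasi-likelihood fit of all 18 samples, 6 comparisons, no batch term (neither the labels nor the methods name a batch), and Benjamini-Hochberg adjustment over all genes, with calls at an adjusted p of 0.05 or less. All p values are two-sided. Differences between replicate mice exceeded counting noise, so spread between mice limits precision except at low counts. Ratios to Cd3e were compared by exact permutation tests, and correlations used log2 CPM (prior count 2) with 100000 permutations. Besides the 10 genes, from each list the called gene with the largest rise and fall per comparison (mean of at least 1 CPM), the 5 genes nearest to Cd3e and to Cd274, and Brca1 and Trp53 were named, and others were chosen after their values were seen. Some genes that this rule names are not reported here. The 10 genes and the lists were chosen with earlier results of these data known. Alternatives were DESeq2 1.42.0, limma-voom 3.58.1 with quantile normalization, no TMM, other filters, a fit of only the groups compared, and leaving out each sample. The fit was tested on simulated data with the same spread set for every gene and changes placed only in genes of higher counts. That test does not cover genes with low counts, such as Foxp3, or with a wider spread.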

Additional observations from a re-analysis of the deposited data

Results flagged for a closer look

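Among 30 sets of 5 tumors (10 genes, 3 groups), 3 held a single library set apart from the rest by more than Dixon's 95% critical value. Chance gives about 1 in 20 where values are normally distributed, but CPM were used here without taking logs. Each of the 3 was the highest value of its set. Cd4 stood at 17.4 CPM in B1/P tumor 3, the highest of all tumors. The same tumor held the Lag3 value of 12.5 CPM that was set apart from its group. Pdcd1 stood at 4.95 CPM in P/Rbf tumor 2, the highest of all libraries.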

How the results depend on the processing

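No paired analysis was possible because replicate numbers were given in accession order and pair no samples. Of 10 genes in 6 comparisons, 341 of 360 values under other fits kept direction and side of the threshold, as did 480 of 540 on leaving out a sample. Where a direction turned or a count moved, the cause was not tested. In B1/P/Rbf against B1/P, 1 gene was called, but 2 by DESeq2, 0 by limma-voom, 0 without TMM, 0 without a filter, 0 with only these groups fitted, and from 0 to 2 on leaving out a sample. In P/Rbf against B1/P, 1 was called, but 0 with only these groups fitted. Without TMM the median of all genes relative to glands rose from between 0.05 and 0.12 to between 0.33 and 0.47. All-gene calls between B1/P/Rbf and P/Rbf were 54, but 1023 by DESeq2, 26 by limma-voom and 0 with only these groups fitted, and between P/Rbf and B1/P 3684, but 1758 with only these groups fitted.

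These values were not called under any setting given here. With limma-voom the log2 difference turned to 0.86 for Foxp3 and 0.12 for Gzmb (B1/P/Rbf against B1/P), to −0.38 for Cd3e and −0.01 for Tigit (B1/P/Rbf against P/Rbf), and to 0.04 for Cd3e and 0.84 for Foxp3 (P/Rbf against B1/P). Without TMM it turned to 0.11 for Pdcd1 (B1/P/Rbf against P/Rbf), and for Cd274 to −0.05 (P/Rbf against B1/P) and 0.05 (B1/P against glands). Lag3 relative to summed Cd3d, Cd3e and Cd3g stood at 0.00 (P/Rbf against B1/P).

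Leaving out a sample gave these ranges of log2 difference in B1/P/Rbf against B1/P: −0.93 to 0.34 for Cd3e, −0.28 to 0.75 for Cd8a and −0.98 to 0.90 for Foxp3. B1/P/Rbf against P/Rbf gave −0.41 to 0.83 for Cd3e, −0.16 to 0.78 for Cd8a, −1.45 to 0.20 for Cd4, −0.04 to 0.98 for Foxp3, −0.34 to 1.44 for Pdcd1 and −0.02 to 1.06 for Tigit. P/Rbf against B1/P gave −0.57 to 0.42 for Cd8a, −1.05 to 0.56 for Cd4, −1.27 to 0.30 for Foxp3, −0.51 to 1.49 for Pdcd1, −0.50 to 0.66 for Tigit and −0.22 to 1.00 for Cd274. Pdcd1 against glands ranged from −0.65 to 0.08 in B1/P/Rbf and from −1.82 to 0.14 in P/Rbf tumors. Relative to Cd3e, B1/P/Rbf against B1/P gave −0.13 to 0.85 for Gzmb and −1.0 to 0.03 for Lag3, and B1/P/Rbf against P/Rbf −0.25 to 1.2 for Foxp3. P/Rbf against B1/P gave −0.09 to 0.24 for Cd8a, −0.42 to 0.58 for Cd4, −0.00 to 1.3 for Foxp3, −0.46 to 0.57 for Lag3 and −0.36 to 0.19 for Tigit, and P/Rbf against glands −0.31 to 1.00 for Foxp3. Low counts limit Foxp3, Tigit and Ctla4, which held 0 to 3 counts in some tumors.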

Other observations

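Tnfrsf9 (4-1BB), a costimulatory receptor of activated T cells, held 61309 counts (1933 CPM) in P/Rbf tumor 2, against 2.82 to 32.8 CPM in the other 14 tumors and 3.86 to 5.50 CPM in glands. Its call against the B1/P group (log2 difference 5.19, adjusted p = 0.0223) rested on that library, and without it the log2 difference was −0.01 (adjusted p = 0.997). Cd3e in the same tumor stood at 1.77 CPM, within the range of its group.

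Lck, the kinase that acts first on the T cell receptor, had 86.5, 23.3 and 16.9 CPM in B1/P/Rbf tumors 5, 2 and 3, where Cd3e had 3.57, 1.46 and 0.110 CPM. In B1/P/Rbf tumors 1 and 4 Lck had 5.53 and 0.609 CPM, with Cd3e at 1.33 and 0.203 CPM. B1/P tumor 3 held 29.9 CPM of Lck and 3.17 CPM of Cd3e. The other B1/P tumors held at most 7.66 CPM of Lck, P/Rbf tumors at most 5.24 CPM and glands 67.1 to 99.2 CPM.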
